A study of Rattus norvegicus with 8 samples.

Results

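The 10 genes described here carry the corticosteroid and corticotropin-releasing hormone (CRH) signal of the stress response. They are the 2 corticosteroid receptors Nr3c1 and Nr3c2, the enzyme Hsd11b1, the corticosteroid-responsive genes Sgk1, Per1, Fkbp5 and Tsc22d3, and Crh with its receptor Crhr1 and its binding protein Crhbp. They were found as the probe sets of the Affymetrix rat genome array annotated to that single gene symbol. For 9 of the 10 genes this gave 11 of the array's 31042 probe sets (Crhr1 was matched to none and was not analysed here), against 14217 genes named in all. Of these probe sets, 9 were bright enough to be tested, 1 for each gene, and the second probe sets of Nr3c1 and Fkbp5 were too dim.

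RNA came from the basolateral amygdala (lateral plus basal nucleus) of rats, laser-microdissected on the operated side, in a study of emotional learning during epileptogenesis. There were 4 groups of 2 arrays (A and B), and each array held amplified RNA pooled from 2 rats. Control rats had been operated on but not electrically stimulated, and epileptogenic rats had been stimulated in the amygdala into status epilepticus and showed no spontaneous seizures while they were studied. Rats of both kinds were habituated to the conditioning box in 5 sessions from day 5 and trained on day 8 in 2 trials. In unpaired training a 1.5 mA, 1 s footshock came before a 75 dB, 20 s tone, and in paired training the tone ended together with the shock. The rats were killed 3 h later. All 4 groups, controls included, therefore carried the operation, the handling and the footshocks, and a rat without shock was not among the arrays used here. Strain, sex and age are not given in the labels used here, nor is what the letters A and B stand for. The labels call the arrays biological replicates of pooled rats, so that each group rests on 4 rats seen as 2 pools.

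Corticosterone, the main glucocorticoid of the rat, enters brain cells and binds the high-affinity mineralocorticoid receptor (Nr3c2) and the lower-affinity glucocorticoid receptor (Nr3c1), which then act on genes in the nucleus. The basolateral amygdala expresses both receptors, and glucocorticoids acting there are known to strengthen the consolidation of fear memory. CRH is the hypothalamic peptide that starts the hormonal stress response, and in the amygdala it is made mainly by neurons of the neighbouring central nucleus and by some interneurons. Levels below are log2 of the deposited signal, in which 1 unit is a doubling. Differences are epileptogenic minus control unless stated otherwise, with the standard error (SE) of the fit, and a gene passed where its limma p-value adjusted over all tested probe sets was below 0.05. Because the arrays measure tissue in bulk, fewer cells of a type and less RNA per cell cannot be told apart.

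The epileptogenic rats differed from the controls by the electrical stimulation, the status epilepticus and the period after it together. Comparing the arms cannot tell these apart. In this comparison 0 of the 9 tested genes passed limma's test, and 2, Sgk1 and Per1, had an unadjusted p below 0.05. Over all tested probe sets, 3.63% passed and 18.4% had an unadjusted p below 0.05. Same-letter arrays deviated together in all pairs of groups, so the letter was also entered as a block. With it 2 of the 9 genes passed, again Sgk1 and Per1, both higher in epileptogenic rats, against 16.2% of all tested probe sets. The 9 differences ran from -0.55 to 1.37 with a median of 0.03, and 5 of them were positive. The median over all tested probe sets was -0.11, and 39.8% of them had a positive difference.

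**Figure D1:**
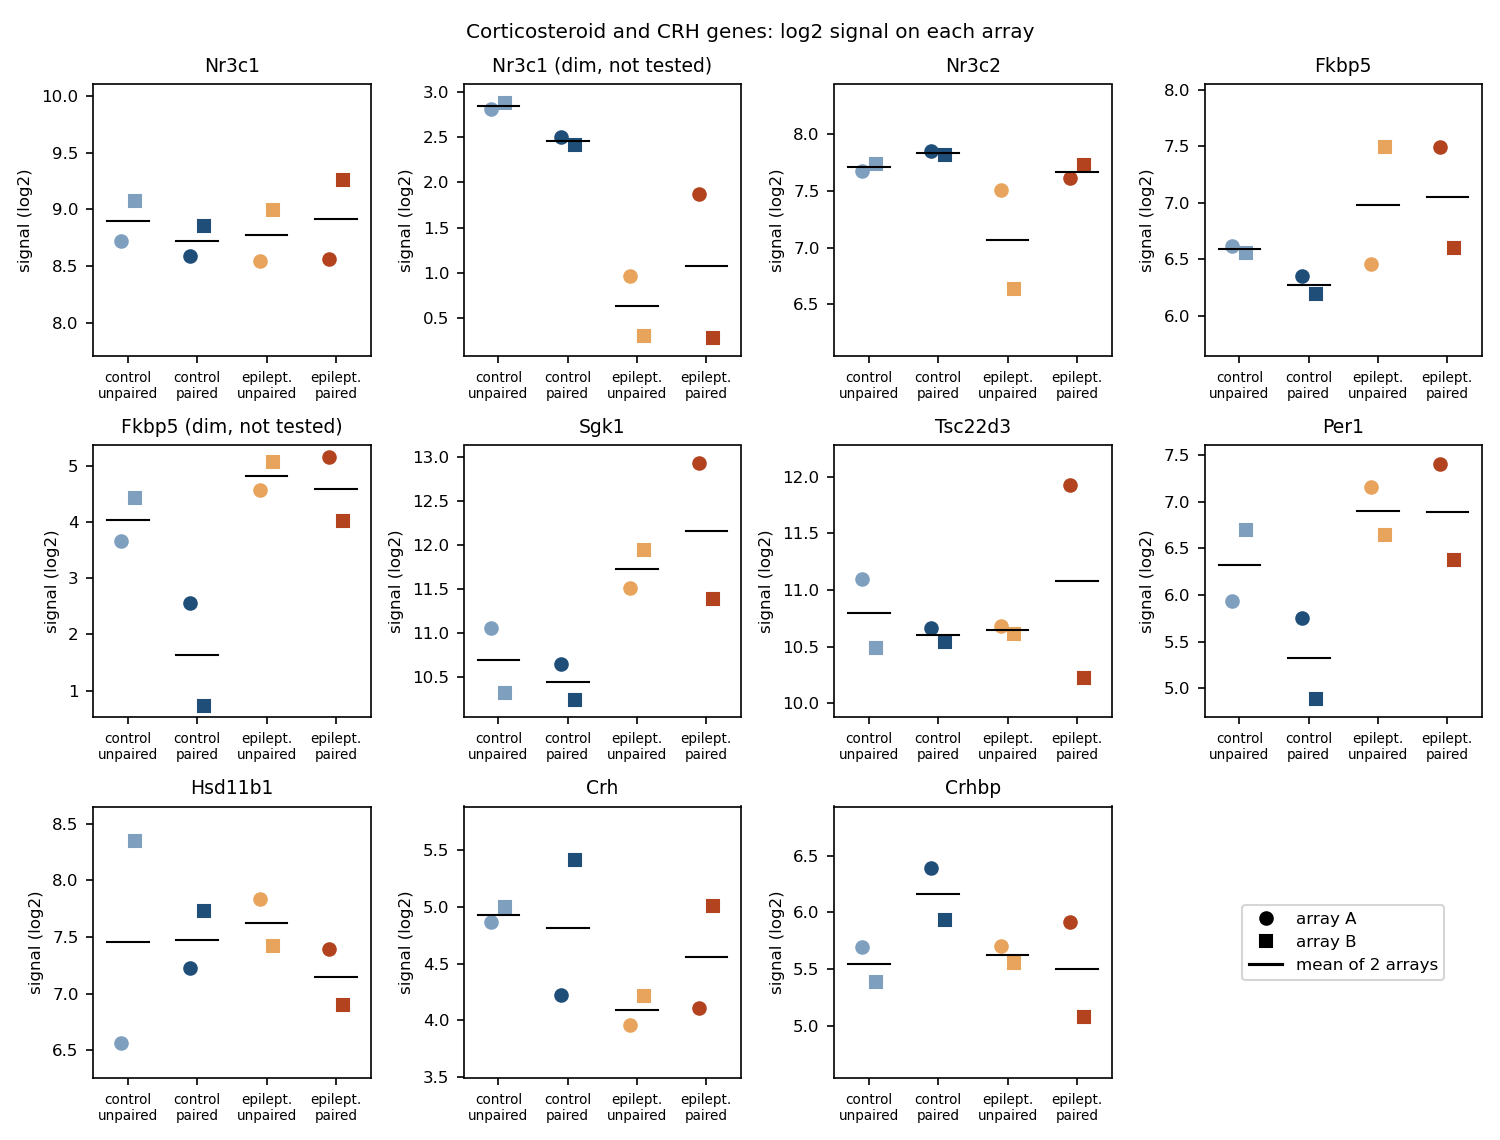
Log2 signal of the members' 11 probe sets on each of the 8 arrays, with 1 panel per probe set, the 4 groups along the horizontal axis, points for arrays A and B and a bar for the group mean. Among the tested probe sets, Sgk1 alone has every epileptogenic array (11.38 to 12.93) above every control array (10.25 to 11.06).

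The glucocorticoid receptor Nr3c1 had nearly the same signal in both kinds of rat. Its log2 signal was 8.72 and 9.07 in control unpaired, 8.59 and 8.85 in control paired, 8.54 and 9.0 in epileptogenic unpaired, and 8.56 and 9.26 in epileptogenic paired rats (arrays A and B). Array B was above array A in each group, and the groups overlapped throughout. Controls averaged 8.81 ± 0.20 and epileptogenic rats 8.84 ± 0.35 (SD, n = 4 arrays each). The difference of 0.03 ± 0.22 (SE) had a 95% confidence interval from -0.47 to 0.54 (limma, adjusted p = 0.960). A change of any size within that interval was not excluded. The 3 named genes whose levels followed Nr3c1 most closely over the 8 arrays were Eprs1 (Pearson r = 0.979), Smc3 (r = 0.973) and Bzw1 (r = 0.968), as a description of these arrays.

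The second Nr3c1 probe set lay far below the level of the filter (log2 4.35) and was not tested. It read 2.81, 2.88, 2.51 and 2.41 in the control arrays and 0.97, 0.30, 1.87 and 0.28 in the epileptogenic arrays. Here the control arrays were all above the epileptogenic arrays, with means of 2.65 ± 0.23 and 0.85 ± 0.75 (SD, n = 4). At so low a signal (1.21 to 7.39 before the log) its difference of -1.80 (limma adjusted p = 0.334 with dim probe sets kept in the fit) was not read as a difference in the receptor.

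The mineralocorticoid receptor Nr3c2 read 7.68, 7.74, 7.85 and 7.81 in the control arrays, a spread of only 0.08 (SD, n = 4). In the epileptogenic arrays it read 7.51 and 6.63 after unpaired and 7.62 and 7.73 after paired training. A single array, epileptogenic unpaired B, stood apart below the other 7 (7.51 to 7.85). The difference of -0.40 ± 0.23 (95% interval -0.92 to 0.12) did not pass (limma, adjusted p = 0.403). Without that array it was -0.18. On the same array the mean log2 signal of the 7 tested interneuron markers was also lowest of the 8, at 7.40 against 8.02 to 8.52. Single markers did not all go that way, since Gad1 (10.54) was lowest of the 8 there and Vip (8.40) highest. The mean of the 9 tested central amygdala and striatal markers was lowest there too, at 6.47 against 7.44 to 8.41 on the other 7. The 4 tested markers of basolateral excitatory neurons were not lowest there, at 6.07 beside 5.90 to 6.36 on the other epileptogenic arrays and 6.91 to 7.31 on the control arrays. The part of these cells in the Nr3c2 value was not tested.

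Hsd11b1 encodes the enzyme that regenerates active corticosterone from its inert 11-keto form inside cells. Its log2 signal ranged from 6.56 to 8.34 in control arrays and from 6.90 to 7.83 in epileptogenic arrays, and the control arrays at either end were those of the unpaired group. The difference was -0.08 ± 0.37 (limma, adjusted p = 0.939). It was 0.72 within the A arrays and -0.88 within the B arrays, so the letters went opposite ways.

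Sgk1, serum- and glucocorticoid-regulated kinase, is a classic receptor target whose kinase regulates ion channels and transporters, and it is also made by oligodendrocytes. The 300 bases around the annotated start of Sgk1 (250 before it and 50 after it, at 1 of its annotated starts) are shown with those of Per1 and Tsc22d3, because these are the corticosteroid-responsive genes whose arrays spread most. The windows are from RefSeq on the GRCr8 assembly, 5′ to 3′ on the strand of the gene. They lie at chr1:24804782-24805081 (minus strand) for Sgk1, chr10:54304126-54304425 (plus strand) for Per1 and chrX:109009985-109010284 (minus strand) for Tsc22d3. Capitals mark matches to the TATA box (TATAAA) and to the half-site of the cyclic AMP response element (TGACG).
Sgk1: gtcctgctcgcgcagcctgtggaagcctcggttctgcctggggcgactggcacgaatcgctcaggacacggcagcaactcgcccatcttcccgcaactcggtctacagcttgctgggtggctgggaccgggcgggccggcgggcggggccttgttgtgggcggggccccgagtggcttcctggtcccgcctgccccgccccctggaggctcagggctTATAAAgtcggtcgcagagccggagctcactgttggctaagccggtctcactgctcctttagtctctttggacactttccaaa
Per1: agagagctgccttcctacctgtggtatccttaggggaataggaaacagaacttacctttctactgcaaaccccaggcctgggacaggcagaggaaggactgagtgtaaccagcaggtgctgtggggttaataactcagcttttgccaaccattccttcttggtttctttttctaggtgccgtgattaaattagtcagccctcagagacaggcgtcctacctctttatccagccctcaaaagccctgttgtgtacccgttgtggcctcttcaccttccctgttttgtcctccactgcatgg
Tsc22d3: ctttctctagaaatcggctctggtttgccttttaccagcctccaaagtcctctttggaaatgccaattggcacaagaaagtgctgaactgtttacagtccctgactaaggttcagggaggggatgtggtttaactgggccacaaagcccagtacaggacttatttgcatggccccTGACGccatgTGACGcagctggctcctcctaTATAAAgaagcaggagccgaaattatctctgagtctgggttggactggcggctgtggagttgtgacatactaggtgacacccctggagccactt
Sgk1 and Tsc22d3 have 3 annotated starts each, and the windows shown are those with the most motif matches, or the match nearest to the start. The Sgk1 window held a TATA box at -33 to -28 from the start, a second Sgk1 window held one at -55 to -50, and the other held none of the motifs searched. The Tsc22d3 window held one at -44 to -39 and TGACG at -75 to -71 and at -65 to -61, while the other 2 Tsc22d3 windows and the Per1 window held none. Of all 33469 RefSeq promoter windows of this length, 14.2% held TATAAA and 21.2% held TGACG on either strand. The glucocorticoid half-site AGAACA (in 20.7% of all windows), the palindrome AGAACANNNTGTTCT, which contains that half-site (0.0149%), the full cyclic AMP element TGACGTCA, which contains TGACG (1.83%), and the E-box CACGTG (6.42%) were found in 0 of the 13 windows of the 7 genes with an entry. That says only that these letters are not in these windows. Nr3c2, Hsd11b1 and Crh had no entry in the promoter table.

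Sgk1 was bright on every array, with log2 signals of 11.06 and 10.33 in control unpaired, 10.66 and 10.25 in control paired, 11.52 and 11.95 in epileptogenic unpaired, and 12.93 and 11.38 in epileptogenic paired rats. All 4 epileptogenic arrays lay above all 4 control arrays, and array A of the epileptogenic paired group was highest by about 1 unit. This separation held for 1 of the 9 tested genes (11.1%) and for 15.1% of all tested probe sets. Controls averaged 10.57 ± 0.37 and epileptogenic rats 11.94 ± 0.70 (SD, n = 4 arrays each), a 2.59-fold higher signal. The difference of 1.37 ± 0.33 (95% interval 0.64 to 2.11) missed the threshold without the block (limma, adjusted p = 0.0552) and passed with it (adjusted p = 0.00562). Within the A arrays it was 1.36 and within the B arrays 1.38. Without array A of the epileptogenic paired group it was 0.99 (adjusted p = 0.101), and without array B of that group 1.76 (adjusted p = 0.0168).

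Markers of oligodendrocytes were higher on the same arrays as Sgk1. The mean log2 signal of the 6 tested oligodendrocyte markers was 8.69 to 8.90 on the control arrays. On the epileptogenic arrays it was 9.70 and 9.56 after unpaired and 10.25 and 9.13 after paired training, so that the arrays highest and lowest for Sgk1 among the epileptogenic ones were also highest and lowest for these markers. Of the 6 markers 1 passed, beside 3.63% of all tested probe sets. It was Aspa, the aspartoacylase of myelin-forming cells, at 1.74 ± 0.26 (limma, adjusted p = 0.00894). The part of oligodendrocytes in the Sgk1 value was not tested.

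Per1 is a clock gene that glucocorticoids and neuronal activity both induce. It read 5.94 and 6.70 in control unpaired and 5.75 and 4.89 in control paired rats. In epileptogenic rats it read 7.16 and 6.64 after unpaired and 7.40 and 6.38 after paired training. The arms overlapped, since the B array of the control unpaired group was above the B arrays of both epileptogenic groups. Controls averaged 5.82 ± 0.74 and epileptogenic rats 6.89 ± 0.47 (SD, n = 4), a 2.10-fold higher signal. The difference of 1.07 ± 0.34 (95% interval 0.32 to 1.83) did not pass without the block (limma, adjusted p = 0.124) and passed with it (adjusted p = 0.0310). It was 1.44 within the A arrays and 0.71 within the B arrays.

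Fkbp5 encodes a co-chaperone that lowers the hormone affinity of the glucocorticoid receptor and is itself induced by it. Its tested probe set read 6.62, 6.56, 6.36 and 6.19 in control arrays, and 6.46 and 7.49 after unpaired and 7.49 and 6.60 after paired training in epileptogenic arrays. Only 2 epileptogenic arrays, unpaired B and paired A, stood clear of the controls. The difference of 0.58 ± 0.30 (95% interval -0.09 to 1.25) did not pass without the block (limma, adjusted p = 0.340) or with it (adjusted p = 0.180). It was 0.32 without the first of these arrays and 0.36 without the second. The second, dim Fkbp5 probe set read 3.66, 4.43, 2.55 and 0.72 in control and 4.57, 5.08, 5.17 and 4.02 in epileptogenic arrays and was not tested with the others. Its difference, 1.87, had the same sign, and with dim probe sets kept in the fit its limma adjusted p was 0.202. Genes whose levels followed the tested Fkbp5 probe set most closely over the 8 arrays were Atf7ip (r = 0.981), Larp1b (r = 0.978) and Rab7a (r = 0.972).

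Tsc22d3, also called Gilz, is a leucine zipper protein induced by glucocorticoids. It read 11.10, 10.49, 10.67 and 10.54 in control arrays and 10.68, 10.61, 11.93 and 10.23 in epileptogenic arrays. The 2 epileptogenic paired arrays were the highest and the lowest of all 8, and the other 6 lay between them. The difference was 0.16 ± 0.33 (95% interval -0.58 to 0.90; limma, adjusted p = 0.844). Without array A of the epileptogenic paired group it was -0.26. That array was the highest of the 8 for 3 of the 9 tested genes (Sgk1, Per1 and Tsc22d3) and for 9.79% of all tested probe sets.

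**Figure D2:**
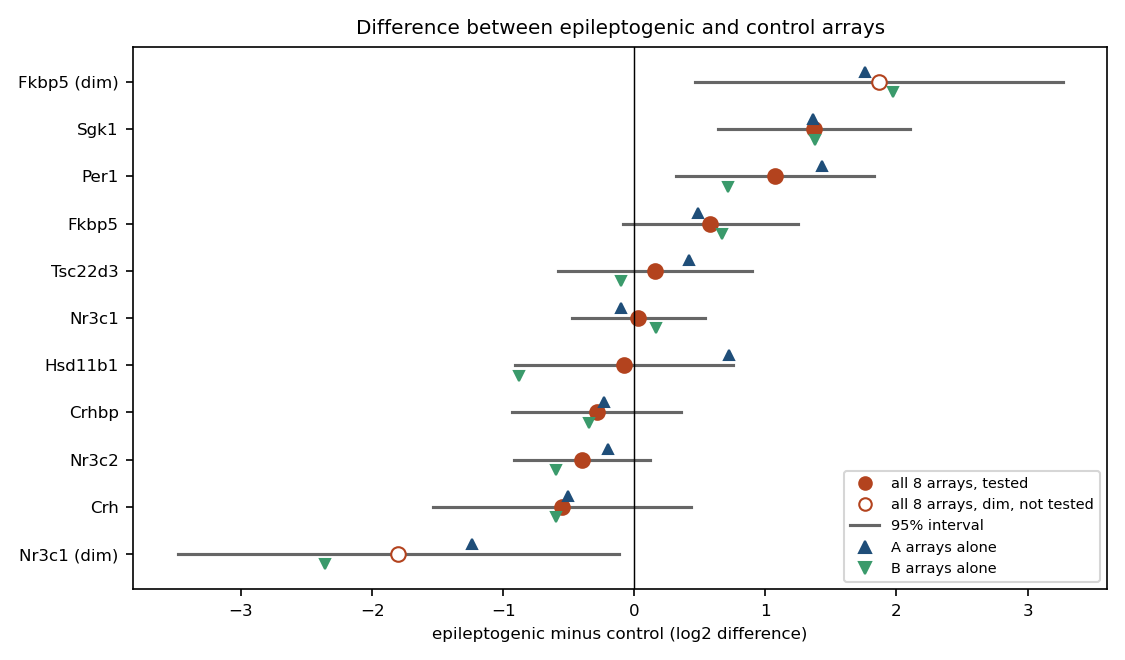
Epileptogenic minus control log2 difference of the members' 11 probe sets, with open points for the dim, untested ones. Points give the estimate and bars the 95% confidence interval, with separate marks for the differences within the A and the B arrays. Among the 9 tested, the intervals of Sgk1 (0.64 to 2.11) and Per1 (0.32 to 1.83) lie above 0, and the other 7 include it. The dim probe sets have intervals below 0 for Nr3c1 (-3.48 to -0.11) and above 0 for Fkbp5 (0.47 to 3.27).

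The peptide side of the system was dim. Crh read 4.87, 5.00, 4.22 and 5.41 in control arrays and 3.96, 4.21, 4.11 and 5.01 in epileptogenic arrays, around the level of the filter. The arms overlapped, and the difference of -0.55 ± 0.44 (95% interval -1.53 to 0.43) did not pass (limma, adjusted p = 0.551) and was -0.25 without control paired array B. Named genes with the most similar levels over the arrays were Cmss1 (r = 0.970), Ubr3 (r = 0.958) and Btbd1 (r = 0.957). Crhbp, a secreted protein that binds CRH and limits its action, read 5.69, 5.39, 6.39 and 5.93 in control arrays and 5.70, 5.55, 5.91 and 5.08 in epileptogenic arrays. Its 3 highest levels were those of both control paired arrays and of the epileptogenic paired array A. The difference was -0.29 ± 0.29 (limma, adjusted p = 0.648), and -0.08 without epileptogenic paired array B.

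Markers of the central amygdala and of striatal neurons, the neighbouring tissue where CRH neurons are most common, averaged 7.44 to 8.13 on control and 6.47 to 8.41 on epileptogenic arrays over the 9 tested. Of the 9, 0 passed (limma, beside 3.63% of all tested probe sets). With the block 1 passed, Prkcd (adjusted p = 0.0405), beside 16.2%. The mean of the 9 markers was highest on the A arrays of both epileptogenic groups and of the control unpaired group. Crh was higher on the B than on the A array of every group.

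The comparison of paired with unpaired training, which asks what associative fear learning adds to the same tones and shocks, called 0 of the 9 genes (limma), and 0 had an unadjusted p below 0.05. Over all tested probe sets 0% passed and 1.15% had an unadjusted p below 0.05. Paired minus unpaired differences over both kinds of rat ran from -0.50 ± 0.34 for Per1 to 0.36 ± 0.23 for Nr3c2. Sgk1 (0.09 ± 0.33), Nr3c1 (-0.02 ± 0.22), Fkbp5 (-0.12 ± 0.30), Tsc22d3 (0.12 ± 0.33), Hsd11b1 (-0.23 ± 0.37), Crh (0.18 ± 0.44) and Crhbp (0.25 ± 0.29) lay between. Each limma adjusted p was 1.00. In control rats alone Per1 was 6.32 on average after unpaired and 5.32 after paired training, a difference of -1.0 ± 0.47 with an unadjusted p of 0.0639. That difference was -0.18 between the A arrays and -1.81 between the B arrays. Within control rats and within epileptogenic rats alone, 0 of the 9 genes passed (limma), and 0 had an unadjusted p below 0.05. Of all tested probe sets 0% passed in either kind of rat, and 1.68% and 1.22% had an unadjusted p below 0.05.

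After unpaired training 0 of the 9 genes separated epileptogenic from control rats by limma's test, against 0.317% of all tested probe sets. An unadjusted p below 0.05 was reached by 0 of the 9, beside 12.5% of all tested probe sets. After paired training 0 of the 9 passed as well, against 0.532%, and 2 had an unadjusted p below 0.05, beside 9.92%. With the block 1 of 9 passed after paired training, Sgk1, against 4.62%. The Sgk1 difference was 1.04 ± 0.46 after unpaired and 1.70 ± 0.46 after paired training, with adjusted p of 0.40 and 0.193, and of 0.103 and 0.0251 with the block (limma). For Per1 it was 0.58 ± 0.47 and 1.57 ± 0.47 (adjusted p = 0.672 and 0.254). Nr3c2 stood at -0.64 ± 0.33 and -0.16 ± 0.33, and Crhbp at 0.09 ± 0.41 and -0.66 ± 0.41.

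The difference between these differences (paired minus unpaired) was tested as an interaction. Of the 9 genes 0 passed (limma) and 0 had an unadjusted p below 0.05, beside 0% and 1.47% of all tested probe sets. The interaction was 0.67 ± 0.65 for Sgk1, 0.99 ± 0.67 for Per1, with an interval from -0.52 to 2.50, 0.48 ± 0.46 for Nr3c2 and -0.75 ± 0.57 for Crhbp. The larger values after paired training are therefore not shown to differ from those after unpaired training. For the other members it was 0.32 ± 0.45 (Nr3c1), 0.38 ± 0.59 (Fkbp5), 0.62 ± 0.66 (Tsc22d3), -0.51 ± 0.74 (Hsd11b1) and 0.59 ± 0.87 (Crh).

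Other genes known to respond to glucocorticoids in various tissues mostly had higher levels in epileptogenic rats. Of 22 listed, 21 had a probe set and 18 were tested. The difference was positive for 17 of the 18, beside 39.8% of all tested probe sets. Its median was 0.81 beside -0.11 for all tested probe sets, and 1 passed (limma, 3.63% of all tested probe sets). The list was chosen with earlier results of these data known, so these counts are a description and not an independent test. The gene that passed was Glul, glutamine synthetase, an astrocyte enzyme, which rose from 10.08 to 10.78 in control arrays to 11.38 to 11.77 in epileptogenic arrays, by 0.98 ± 0.18 (adjusted p = 0.0199). Its other 2 probe sets gave 0.73 (adjusted p = 0.223) and -0.20 (adjusted p = 0.880). The Glul call was kept without control paired B or epileptogenic paired B and lost without any other single array, with median centring and without the intensity trend. The mean of the 18 genes was 6.87 to 7.17 on the control arrays and 7.46 to 8.32 on the epileptogenic arrays. With the 3 genes below the filter included it was 5.99 to 6.56 and 6.84 to 7.70. The groups of single genes were separate for 4 of the 18 (22.2%), beside 15.1% of all tested probe sets.

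With the block 10 of the 18 passed, all higher in epileptogenic rats, against 16.2% of all tested probe sets. The following were named after their values were seen, as the largest of the 10. Mt2A, a metal-binding metallothionein, differed by 2.25 ± 0.60 (limma adjusted p = 0.0799 without and 0.0239 with the block). Its epileptogenic paired array B (7.91) was below control unpaired array A (8.00). Pdk4, a kinase that inhibits pyruvate dehydrogenase, differed by 2.16 ± 0.66 (0.115 and 0.0324). The Pdk4 signal was 4.80 to 5.90 in control arrays. Of the epileptogenic arrays unpaired A, at 5.48, lay within that range while the other 3 were at 7.68 to 8.95. A second, dim Pdk4 probe set (mean 3.78, not tested) went the other way, at -0.69. Sult1a1, a sulfotransferase, differed by 1.33 ± 0.47 (0.166 and 0.0453), with epileptogenic paired array B (5.39) inside the control range (4.82 to 6.07). Cdkn1a, a cell cycle inhibitor, differed by 1.30 ± 0.36 (0.0860 and 0.0231), and its dim, untested probe set by -0.07. The gap junction gene Gjb6, at -0.38 ± 0.29, was the negative one of the 18. Mt1, Cebpd and Hif3a lay below the filter, and Zbtb16 had no probe set.

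The epileptogenic paired array A was highest of the 8 for 8 of these 18 genes and the epileptogenic unpaired array B for 7, beside 9.79% and 13.5% of all tested probe sets. These are the same 2 arrays that stood highest for Fkbp5. Between the arms, the means of the glial marker lists were also higher in epileptogenic rats. Among the epileptogenic arrays the microglia mean was lowest on paired A. The astrocyte markers averaged 9.77 to 10.45 on control and 10.70 to 10.94 on epileptogenic arrays. Of these 6 markers 2 passed, beside 3.63% of all tested probe sets. They were Gfap, the intermediate filament of reactive astrocytes (2.83 ± 0.29, limma adjusted p = 0.00237), and the water channel Aqp4 (0.84 ± 0.16, adjusted p = 0.0227). The other 2 tested Aqp4 probe sets gave 0.74 (adjusted p = 0.136) and -1.21 (adjusted p = 0.0647) and so did not go one way. The 7 tested microglia markers averaged 5.12 to 6.45 and 7.79 to 8.70, and 6 of them passed, all higher, C1qa of the complement system among them (2.40 ± 0.21, adjusted p = 0.00208). The remaining one, Cx3cr1, went the other way at -0.40 ± 0.58 (limma adjusted p = 0.76). Aif1 was counted by its brightest probe set (2.72, adjusted p = 0.00894), while its other tested probe set gave -0.51 (adjusted p = 0.498). The part of these cells in the glucocorticoid-responsive list was not tested.

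**Figure D3:**
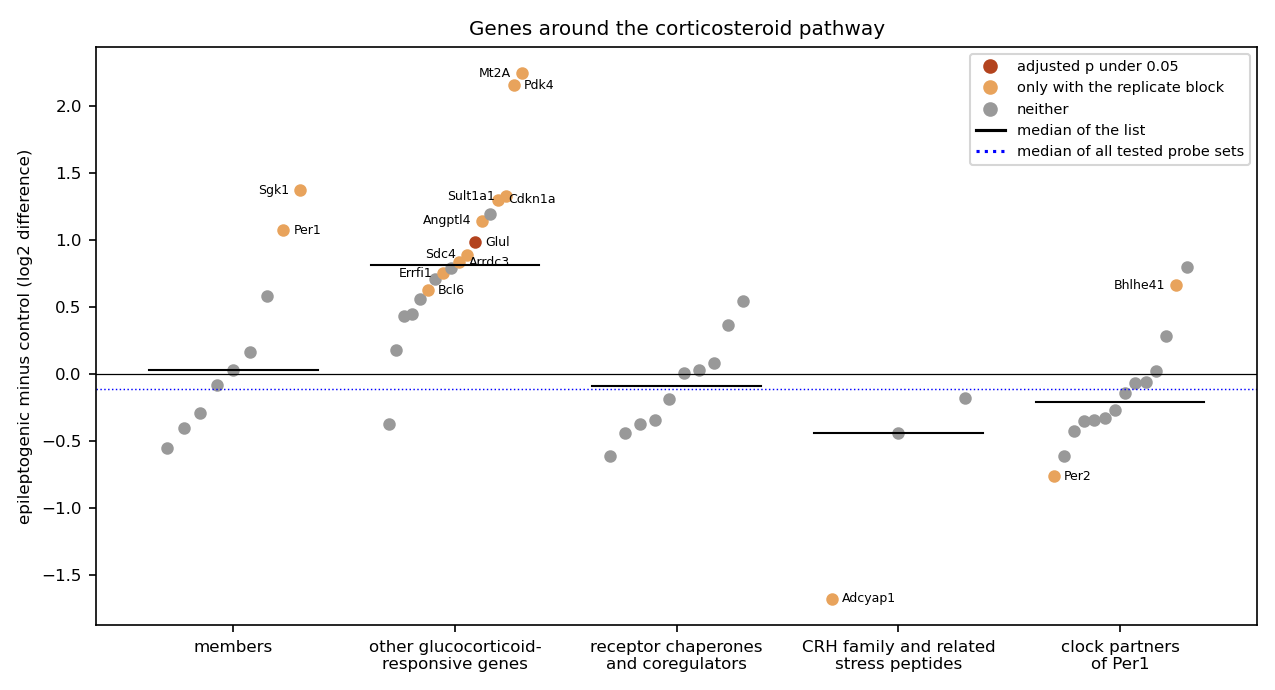
Epileptogenic minus control log2 difference of each tested gene of the members and of 4 related lists, coloured by whether it passed, passed only with the replicate block, or neither, with a bar at the median of each list and a dotted line at the median of all tested probe sets (-0.11). The glucocorticoid-responsive list has its median at 0.81, and the members have theirs at 0.03.

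Around the receptors themselves little moved beyond the spread. Of 14 listed chaperones and coregulators of the receptor complex, 10 were tested, with a median of -0.09 and 5 positive, and 0 passed, with or without the block (limma). The smallest p-values were those of Stip1, the organizer protein that links Hsp70 to Hsp90 (-0.61 ± 0.22, adjusted p = 0.172), and Hsp90ab1, an Hsp90 chaperone (-0.44 ± 0.22, adjusted p = 0.336). Stip1 alone of the 10 had an unadjusted p below 0.05, beside 18.4% of all tested probe sets. In corticosteroid metabolism and transport 1 of 5 listed genes was tested, the drug and steroid exporter Abcb1a, at 0.28 ± 0.35 (adjusted p = 0.730). Hsd11b2, which inactivates corticosterone, and H6pd, which supplies Hsd11b1 with its cofactor, were below the filter.

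Of 13 related stress peptides and receptors only 3 were tested and 0 passed without the block (limma, 2 at an unadjusted p below 0.05, beside 18.4% of all tested probe sets). With the block 1 of the 3 passed (beside 16.2% of all tested probe sets), Adcyap1, which encodes the peptide PACAP. It read 6.05, 6.85, 6.58 and 6.68 in control arrays and 5.22, 3.90, 4.55 and 5.78 in epileptogenic arrays. All epileptogenic arrays were below all control arrays. The arms were separate for 2 of the 3 genes, beside 15.1% of all tested probe sets. Adcyap1 differed by -1.68 ± 0.40 (limma adjusted p = 0.0553 without and 0.0154 with the block). It also passed without epileptogenic unpaired array A. Its receptor Adcyap1r1 stood at -0.44 ± 0.18 (adjusted p = 0.239) and the melanocortin receptor Mc4r at -0.18 ± 0.57. Adcyap1 is a neuronal peptide, and on the same arrays the 4 tested markers of basolateral excitatory neurons averaged 6.91 to 7.31 in control and 5.90 to 6.36 in epileptogenic rats. Of these 4 markers 1 passed, the transcription factor Neurod6 (-1.33 ± 0.29, limma adjusted p = 0.0408), and 3 with the block. Of all tested probe sets 3.63% passed, and 16.2% with the block. The part of these cells in the Adcyap1 value was not tested. Vasopressin, oxytocin, their receptors, Ucn, Ucn2 and Pomc were below the filter, and Ucn3 and Crhr2 had no probe set.

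Of the 14 tested clock partners of Per1, 4 had a positive difference (beside 39.8% of all tested probe sets), the median was -0.21, and 0 passed (limma; 3 at an unadjusted p below 0.05, beside 18.4%). The arms did not overlap for 2 of the 14 (14.3%), beside 15.1% of all tested probe sets. Per2, the paralog of Per1, was 1 of them and read 8.84 to 9.01 in control and 7.89 to 8.36 in epileptogenic arrays. Its difference of -0.76 ± 0.19 had an adjusted p of 0.0594, and of 0.00611 with the block. Hlf, a clock output factor, stood at -0.61 ± 0.22 (adjusted p = 0.182). Bhlhe41, a repressor of the clock, was the other gene that passed with the block (0.66 ± 0.29, adjusted p = 0.0161, and 0.268 without it). With the block 16.2% of all tested probe sets passed. Of the activity-induced genes, Fos passed, rising by 1.70 ± 0.28 (limma, adjusted p = 0.0132) from 6.85 to 7.39 in control arrays to 8.40 to 9.46 in epileptogenic arrays, a call lost without control paired array A. Egr1 (-0.24 ± 0.19), Arc (-0.25 ± 0.47), Nr4a1 (-0.18 ± 0.43) and Junb (0.08 ± 0.49) did not pass. Over all tested probe sets 3.63% passed. A second, dim Fos probe set, not tested, gave 0.13.

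**Figure D4:**
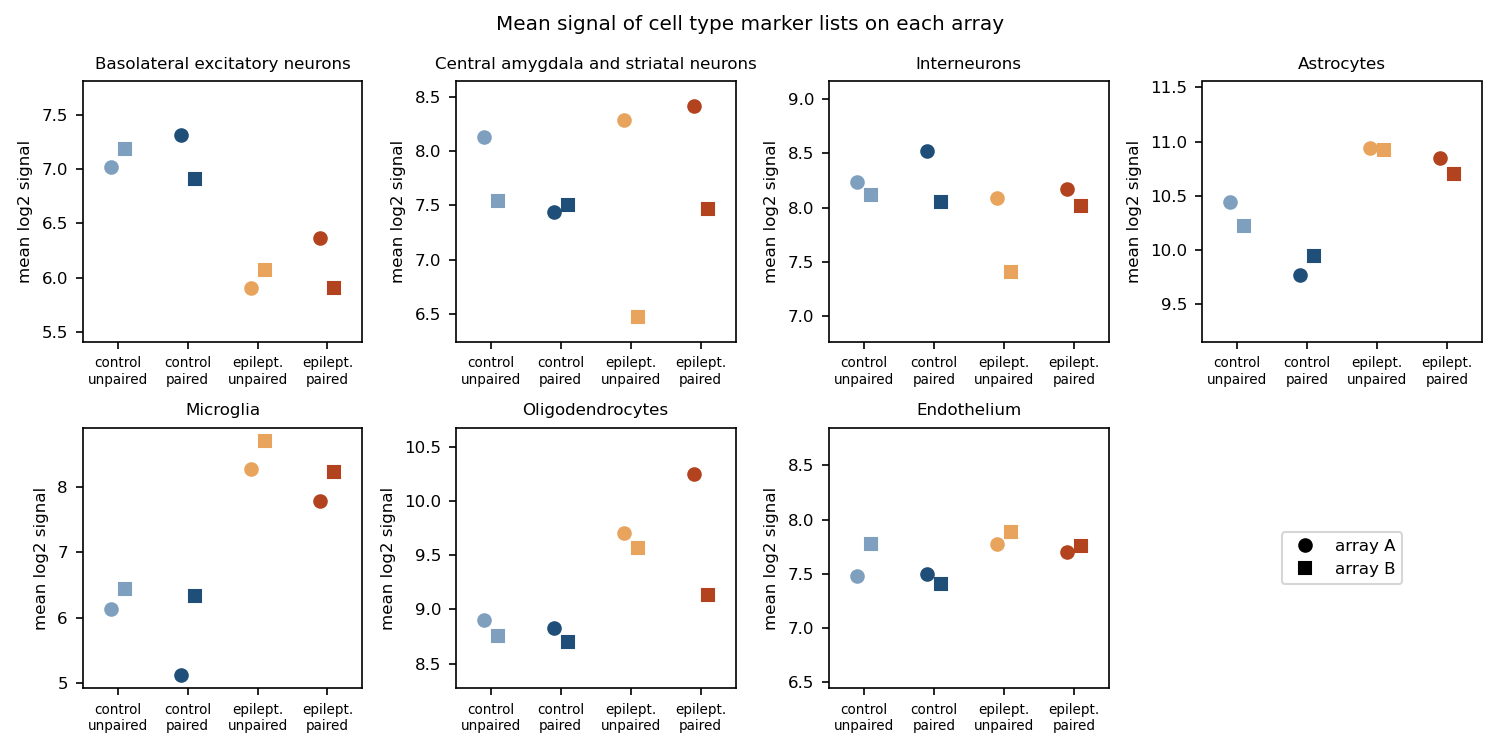
Mean log2 signal of the tested markers of each cell type on the 8 arrays, with points for arrays coloured by group. Microglia (5.12 to 6.45 in control, 7.79 to 8.70 in epileptogenic rats), astrocytes and oligodendrocytes are higher and basolateral excitatory neurons lower on every epileptogenic array.

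The label was set against its markers. Of 5 markers of basolateral excitatory neurons with a probe set, Neurod6, Camk2a, Slc17a6 and Slc17a7 had a mean above the filter and Tbr1 did not. Slc17a7, the vesicular glutamate transporter, read 5.13 to 5.62 on the control arrays but was under the filter level on 3 of the 4 epileptogenic arrays (3.98 to 4.33, and 5.89 on paired A). Markers of the neighbouring central amygdala and striatum were also bright. Of 10 with a probe set, 9 had a mean above the filter and Tac1 did not. Their mean was 7.44 to 8.13 on control and 6.47 to 8.41 on epileptogenic arrays. Over the epileptogenic arrays Scn4b ran from 5.88 to 10.42, while Drd1 ran from 8.45 to 8.70. The share of this tissue on each array was not tested. The interneuron markers Sst and Pvalb lay below the filter. Endothelial markers averaged 7.40 to 7.77 on control and 7.70 to 7.89 on epileptogenic arrays. Of these 0 of 6 passed (limma), and 1 with the block, beside 3.63% and 16.2% of all tested probe sets. Of the 7 tested interneuron markers 1 passed, beside 3.63% of all tested probe sets. It was Calb2, the calcium buffer calretinin, at -1.34 ± 0.24 (limma, adjusted p = 0.0192).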

How the data were processed

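The deposited values are probe set signal intensities on a linear scale, made by the authors with MAS5 per the submitters' processing notes. Version and scaling target are not given in the sources used here, and detection calls were not used here. Median signals per array ran from 29.0 to 43.2, and log2 signals of any 2 arrays correlated at 0.850 to 0.925. The number of arrays limits the precision.

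Signals were taken to log2 with no further normalization, and 57 control probe sets were left out. Of 31042 others, 20826 carried a single gene symbol. The 18625 with a mean above the 40th percentile were tested (log2 4.35, a signal of 20.3). A gene was read by its brightest probe set.

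Differences were tested with limma 3.58.1 (R 4.3.3). The fit had 4 group means, an intensity trend, moderated two-sided tests and p-values adjusted by Benjamini-Hochberg over all tested probe sets (threshold 0.05). It was run on simulated data with planted differences larger than those of the tested members and no shared letter effect. That run therefore does not show how the fit handles differences of the members' size on these arrays. Arrays of the same letter deviated together from their group means (correlations 0.321 to 0.407 in all 6 pairs of groups), so the letter was also entered as a block. P-values without the block measure the spread between pools of rats, including what arrays of the same letter share. Those with the block measure the spread left after that shared part is taken out.

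Alternatives were quantile normalization, median centring, an added offset of 16, no filter or a 60th percentile filter, no trend, the block, and leaving out each array. From each related list the genes that passed were named, at most 4, or the 2 smallest p where none did, and 3 genes by likeness to Nr3c1, Fkbp5 and Crh. The members and lists were chosen with earlier results of these data known. Figures were drawn with matplotlib 3.10.9 (Python 3.11.15).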

Additional observations from a re-analysis of the deposited data

How the results depend on the processing

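With 4 arrays against 4, the call of Sgk1 depends on the setting. The count of members that passed between epileptogenic and control rats was 0, and 1 (Sgk1) with quantile normalization, median centring, an offset of 16 or the 60th percentile filter (limma adjusted p = 0.0401, 0.0360, 0.0478 and 0.0495). It stayed at 0 with no filter (Sgk1 adjusted p = 0.0653) and without the intensity trend (0.133). Leaving out single arrays gave 0 to 1, with an adjusted p for Sgk1 of 0.0168 to 0.173 and for Per1 of 0.0975 to 0.314. With the replicate block, 2 members passed, and 1 after paired training. It changed no other member's call. Over all tested probe sets 731 of 18625 passed with quantile normalization and 724 with the offset, beside 677 in the main fit. The 60th percentile filter gave 720 of 12417, and no filter gave 576 of 31042. The glucocorticoid-responsive list, whose alternatives were chosen after seeing the data, gave 1 gene, 0 with median centring or no trend, 2 with the offset or with no filter, 10 with the replicate block, and 0 to 2 without single arrays. Of the other related lists, the replicate block gave 1 stress peptide gene and 2 clock genes, the offset and leaving out epileptogenic unpaired array A each gave 1 stress peptide gene (Adcyap1), the 60th percentile filter gave 1 clock gene (Per2), and without control paired array A the activity genes gave 0. The 677 probe sets that passed in all became 389 with median centring, which moved the median difference from -0.11 to -0.005, 330 without the trend, 3022 with the block and 224 to 435 without single arrays.

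Differences near 0 turned sign. Hsd11b1 gave 0.0222 with quantile normalization and 0.0261 with median centring, and the training difference of Nr3c1 gave 0.0731 with median centring. Without single arrays, the difference between epileptogenic and control rats ran from -0.14 to 0.21 for Nr3c1, -0.26 to 0.59 for Tsc22d3 and -0.52 to 0.37 for Hsd11b1, and for Crhbp after unpaired training from -0.067 to 0.24. It kept its sign for Nr3c2 (-0.62 to -0.18), Fkbp5 (0.32 to 0.84), Crh (-0.85 to -0.25) and Crhbp over both trainings (-0.50 to -0.08). The training difference ran from -0.19 to 0.16 (Nr3c1), -0.38 to 0.14 (Fkbp5), -0.29 to 0.48 (Sgk1), -0.31 to 0.54 (Tsc22d3), -0.67 to 0.22 (Hsd11b1) and -0.12 to 0.48 (Crh). The interaction ran from -0.0333 to 0.66 (Nr3c1), -0.13 to 0.90 (Fkbp5), -0.11 to 1.44 (Sgk1), -0.23 to 1.47 (Tsc22d3), -1.40 to 0.38 (Hsd11b1) and -0.01 to 1.18 (Crh). The cause of these turns was not tested.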
